A study of Mus musculus with 14 samples.

Results

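The Adamts, Mmp and Timp families, which hold the secreted and membrane-bound metalloproteinases of the extracellular matrix and their inhibitors, were followed in bone marrow adipose tissue (BMAT) of mice with and without Pnpla2 in their bone marrow adipocytes (BMAds). The families were chosen with earlier results of these data known, so shares of members below describe them and are no independent support. Within the families, members were taken by symbol alone, as every gene of the deposited matrix named Adamts, Adamtsl, Mmp or Timp plus a number. This gave 43 of 23441 genes, with 17 Adamts, 5 Adamtsl, 17 Mmp and 4 Timp genes. Of the 43, 38 passed the filter on low counts and were tested among 17494 genes, and Adamts8, Adamts13, Adamts20, Mmp21 and Mmp24 were not, with at most 7 counts in any sample.

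RNAseq was performed on marrow plugs of distal tibiae, with tissue of 2 mice pooled per sample, from male C57BL6/SJL mice at 24 weeks of age. Ad libitum feeding (AL) was compared with caloric restriction (CR, 30% for 6 weeks), with 4 AL and 4 CR samples from BMAd-Pnpla2+/+ mice and 3 of each from BMAd-Pnpla2-/- mice. Per the study's methods, mice of both genotypes carried Osterix-FLPo together with Cre, placed behind an IRES after the Adipoq coding sequence and switched on by FLPo, and floxed Pnpla2, the gene of adipose triglyceride lipase, is deleted where both drivers are active. The cassette lowers circulating adiponectin, and FLPo is also active in osteoblasts, osteocytes and some marrow stromal cells. P-values here measure the spread between pools.

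The values used are counts without regard to strand, with 18898324 to 21665553 gene reads per sample, and CPM, the usual depth-scaled unit, denotes counts divided by the TMM-scaled library size. The 3 BMAd-Pnpla2-/- CR libraries carry no strand information, with 50.1% to 50.5% of strand-assigned gene reads on the first strand against 4.30% to 4.62% in the other 11. Library type and this group therefore cannot be told apart in any comparison that uses it. Pnpla2 itself stood at 176 to 305 CPM in BMAd-Pnpla2+/+ AL, 509 to 1029 in BMAd-Pnpla2+/+ CR, 133 to 172 in BMAd-Pnpla2-/- AL and 180 to 271 in BMAd-Pnpla2-/- CR. Under CR it was lower in BMAd-Pnpla2-/- samples by edgeR's test (log2 fold change of -1.91, SE 0.26, adjusted p = 0.0387), whereas under AL the log2 difference was -0.57 (SE 0.25, adjusted p = 1.0). All 12 genes of an adipocyte list were detected in every sample.

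Matrix metalloproteinases (Mmp) are zinc enzymes made as inactive precursors, and between them cleave collagens, gelatin, proteoglycans and many cell-surface proteins. The Adamts enzymes add thrombospondin repeats that hold them in the matrix, where they cleave aggrecan and versican, trim procollagens or process fibrillin-rich fibrils, and the Adamts-like (Adamtsl) proteins keep the repeats but lack the protease domain. Tissue inhibitors of metalloproteinases (Timp) bind the active sites of these enzymes, and in bone the balance between them bears on osteoclastic resorption, osteoid turnover and release of marrow cells.

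Promoters are shown first for Adamts12, Adamtsl3 and Timp4, the 3 members that passed as higher with CR in both genotypes (edgeR, adjusted p under 0.05). That of Mmp13 is added, chosen after its motifs were seen because its window held 4 of the 5 motifs searched. RefSeq windows of GRCm38.p6 run from 250 bases before to 50 bases after a gene's start, and 30 of the 43 members have at least 1. The motifs, searched on both strands, were the TATA box TATAAA, the GC box GGGCGG, the AP-1 motif TGANTCA, the forkhead motif GTAAACA and the Runx motif TGTGGT, and the motifs do not overlap in these windows. Capitals mark their matches, written 5' to 3' on the strand of the gene.
Adamts12, chr15:11064523-11064822, plus strand: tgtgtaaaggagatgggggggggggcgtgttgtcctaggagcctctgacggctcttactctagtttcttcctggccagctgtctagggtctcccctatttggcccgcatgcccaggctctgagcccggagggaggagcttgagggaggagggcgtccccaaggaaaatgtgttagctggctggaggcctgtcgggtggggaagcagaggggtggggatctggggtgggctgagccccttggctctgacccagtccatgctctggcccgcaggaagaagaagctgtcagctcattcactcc
Adamtsl3, chr7:82335444-82335743, plus strand: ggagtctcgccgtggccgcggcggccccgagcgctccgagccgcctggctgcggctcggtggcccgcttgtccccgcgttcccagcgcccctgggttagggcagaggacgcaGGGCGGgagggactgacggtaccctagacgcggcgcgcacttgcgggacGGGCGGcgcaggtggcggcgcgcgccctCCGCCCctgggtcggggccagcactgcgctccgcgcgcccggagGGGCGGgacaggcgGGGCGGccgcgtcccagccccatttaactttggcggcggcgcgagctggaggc
Timp4, chr6:115252156-115252455, minus strand: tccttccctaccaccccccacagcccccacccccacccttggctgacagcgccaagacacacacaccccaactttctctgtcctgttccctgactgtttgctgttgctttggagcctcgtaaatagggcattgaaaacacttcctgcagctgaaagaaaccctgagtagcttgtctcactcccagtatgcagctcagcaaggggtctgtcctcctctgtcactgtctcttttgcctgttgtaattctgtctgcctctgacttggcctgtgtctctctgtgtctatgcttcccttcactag
Mmp13, chr9:7272264-7272563, plus strand: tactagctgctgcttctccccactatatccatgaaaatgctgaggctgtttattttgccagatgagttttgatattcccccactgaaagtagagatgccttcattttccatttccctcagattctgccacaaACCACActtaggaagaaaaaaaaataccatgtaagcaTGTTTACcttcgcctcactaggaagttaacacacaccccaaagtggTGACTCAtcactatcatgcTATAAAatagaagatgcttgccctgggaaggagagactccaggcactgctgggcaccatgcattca
No motif was matched in the Adamts12 and Timp4 windows, 5 GC boxes were matched in that of Adamtsl3, and the Mmp13 window held the TATA, AP-1, forkhead and Runx motifs and no GC box. Of 32 member windows, 22 held a GC box, against 35.7% of all 32851 windows of the same length. The TATA box was found in 6 (Adamts1, Adamtsl2, Mmp8, Mmp12, Mmp13 and Mmp21), against 13.6% of all windows. AP-1 motifs occurred in 2 (Mmp12 and Mmp13; 7.81% of all windows), forkhead motifs in 2 (Adamts13 and Mmp13; 3.65%) and Runx motifs in 4 (Mmp13, Mmp14, Mmp23 and Mmp27; 16.8%). A match describes letters of the window and says nothing about binding.

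Levels per kilobase of exon, which allow genes to be compared, spanned several orders of magnitude. In BMAd-Pnpla2+/+ AL samples, Mmp9, gelatinase B of neutrophils and osteoclasts, led with 428 ± 72.5 CPM per kb (SD, n = 4), followed by Mmp8, the neutrophil collagenase, with 287 ± 58.0. Timp2, the inhibitor that also takes part in activation of pro-Mmp2 by Mmp14, came next with 57.8 ± 2.19, and Mmp25, a membrane-anchored enzyme of leukocytes, stood at 33.5 ± 4.45. Each step between these 4 exceeded the SDs of both neighbours. Timp3 (18.4 ± 4.28) and Mmp13 (18.2 ± 13.6) did not differ beyond their spread, nor did Adamts2 (13.2 ± 1.18), Mmp14 (12.7 ± 3.02) and Adamts10 (11.8 ± 1.64). At the low end, tested members fell to 0.0210 ± 0.00820 CPM per kb for Adamts18. Because unstranded counting drops reads in exons that Timp3 shares with Syn3, its level is 61.6% of that counted by strand in the 11 stranded samples, as is 76.4% for Mmp19, 83.6% for Adamts9 and 86.6% for Mmp28.

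Mmp8 and Mmp9 together made up 80.3% to 91.1% of the summed Mmp level per kb in the 14 samples, so the family sum followed these 2 genes. That sum was 805 ± 123 CPM per kb (SD, n = 4) in BMAd-Pnpla2+/+ AL and 865 ± 173 in CR, and 849 ± 56.6 (n = 3) and 833 ± 103 in the BMAd-Pnpla2-/- groups. The summed Timp level was 83.2 ± 5.51 CPM per kb in BMAd-Pnpla2+/+ AL and 139 ± 42.1 in CR, and 86.2 ± 17.3 and 119 ± 13.2 in BMAd-Pnpla2-/- mice, with no overlap between AL and CR samples of either genotype. Adamtsl sums were 6.13 ± 0.347 and 12.2 ± 2.30 in BMAd-Pnpla2+/+ and 6.68 ± 0.951 and 8.97 ± 0.763 in BMAd-Pnpla2-/- mice, again without overlap. Adamts sums overlapped between AL and CR, with 39.2 ± 4.29 and 55.2 ± 16.2 CPM per kb in BMAd-Pnpla2+/+ and 34.8 ± 5.92 and 39.6 ± 2.54 in BMAd-Pnpla2-/- mice.

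**Figure D1:**
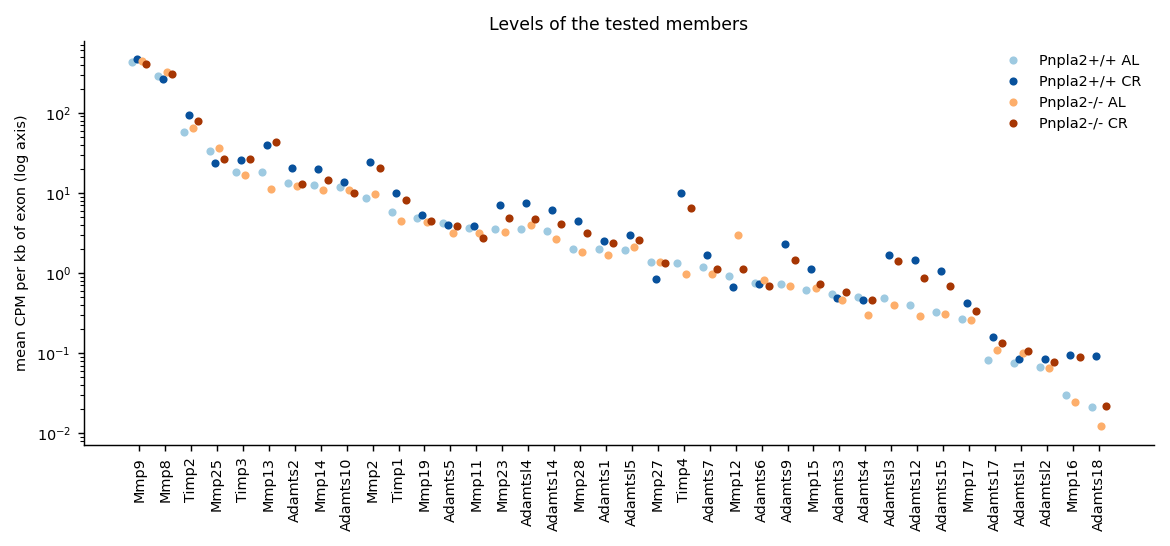
Mean CPM per kb of exon (log axis) of the 38 tested members in the 4 groups, ordered by the BMAd-Pnpla2+/+ AL level. Mmp9 and Mmp8 lie above all other members in every group, and Timp4 lies near 1 in the AL groups and well above it in the CR groups.

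CR in BMAd-Pnpla2+/+ mice raised 14 of the 38 tested members (36.8%), against 15% of all 17494 genes, and lowered 1, Mmp25 (2.63%), against 10.9%. Those raised were Adamts9, Adamts12, Adamts14, Adamts15, Adamts18, Adamtsl3, Adamtsl4, Adamtsl5, Mmp2, Mmp17, Mmp23, Mmp28, Timp2 and Timp4. Past a log2 fold change of 1 were 9 of them, against 7.26% of genes, and no member was lowered past -1, against 1.93% of genes. Log2 fold changes were above 0 for 30 of 38 members with a median of 0.62, whereas the median of all genes was 0.00. Without CR replicate 2, 27 of 38 lay above 0 and the median was 0.35, against 0.00 for all genes. Without BMAd-Pnpla2+/+ CR replicate 4, 21 members were raised, against 18.4% of all genes in that setting. Without CR replicate 3, 12 were raised and 0 lowered, against 8.25% and 4.42%. In a bulk sample, fewer cells of a type and less RNA per cell cannot be told apart.

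In BMAd-Pnpla2-/- mice CR raised 4 members (10.5%), Adamts12, Adamtsl3, Timp3 and Timp4, against 6.01% of all genes, and 3 of them (all but Timp3) past a log2 fold change of 1, against 2.59%. No member was lowered, against 5.57% of genes. By edgeR 14 members (36.8%) had an unadjusted p under 0.05, against 29.1% of all genes, and by DESeq2 8 members were raised and 0 lowered, against 8.05% and 9.66%. Without BMAd-Pnpla2-/- AL replicate 1 or 3 or CR replicate 2 or 3, edgeR raised 2 members, Timp4 and Adamtsl3, against 0.674% to 2.63% of all genes. Without BMAd-Pnpla2+/+ CR replicate 2 or 4 it raised 7, against 7.01% and 7.53%. The median log2 fold change of the 38 members was 0.32, against 0.05 for all genes. All 14 members raised in BMAd-Pnpla2+/+ mice had log2 fold changes above 0 here too, from 0.26 to 2.74, and 3 of them were called. Their median was 1.34 with functional Pnpla2 and 0.80 in BMAd-Pnpla2-/- mice, a description only, since they were picked for their value in the former.

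**Figure D2:**
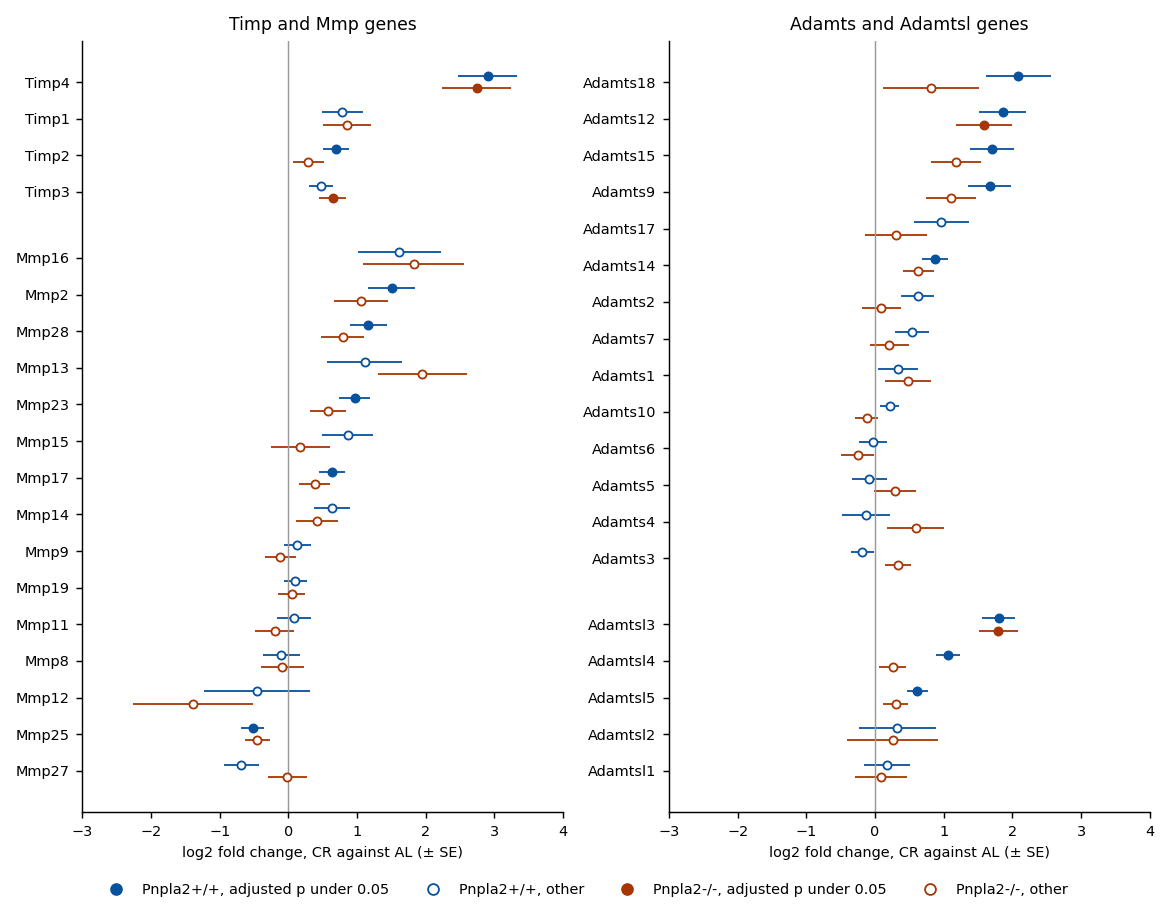
Log2 fold changes of CR against AL (points) with their SE (bars) for the 38 tested members by family, in BMAd-Pnpla2+/+ (blue) and BMAd-Pnpla2-/- mice (brown), filled where the adjusted p is under 0.05. Timp4 has the largest values in both genotypes, 2.90 and 2.74, and Mmp8 and Mmp9 lie near 0.

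Adipocyte markers rose with CR in both genotypes as well. The summed level of the 12 adipocyte genes was 1224 to 2516 CPM in BMAd-Pnpla2+/+ AL and 3010 to 7423 in CR, and 673 to 1414 and 2172 to 3461 in BMAd-Pnpla2-/- mice, with 12 of 12 genes higher in the first genotype and 10 of 12 in the second. Endothelial genes went from 745 to 1087 CPM in AL to 973 to 2044 in CR (8 of 10 higher) and from 692 to 943 to 837 to 1100 (1 of 10 higher). Genes of CXCL12-abundant reticular stroma went from 5769 to 7244 CPM to 7240 to 12533 (5 of 10 higher), and from 5368 to 8857 to 6918 to 10438 (2 of 10 higher). None of these 32 genes was at 0 in any sample, and their part in the members' results was not tested. In BMAd-Pnpla2+/+ CR, replicate 4 had the lowest adipocyte (3010 CPM), endothelial (973), stromal (7240) and osteoblast and osteocyte sums (791). Its neutrophil sum, 27798 CPM, was the highest of the group. The osteoclast and the cartilage and tendon sums were instead lowest in replicate 3 (631 and 27.0 CPM, against 905 and 50.7 in replicate 4). The macrophage sum was lowest in replicate 1 (2330 CPM, against 2377 in replicate 4). Replicate 4 was also the lowest of the 4 for Timp3, Timp4, Adamts9, Adamts12, Mmp2 and Mmp28. In contrast, Timp2, Adamtsl3 and Adamtsl4 were lowest in replicate 1 and Adamtsl5 in replicate 3.

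Of the 4 inhibitors, 2 rose in each genotype (Timp2 and Timp4 in BMAd-Pnpla2+/+, Timp3 and Timp4 in BMAd-Pnpla2-/- mice), and all 4 had log2 fold changes above 0. Timp4, an inhibitor known for its expression in adipose tissue and heart (chromosome 6, 115241892 to 115252205, GRCm38), had the largest log2 fold change of the 38 in both genotypes. Timp4 stood at 8.32, 9.41, 5.79 and 8.17 CPM in BMAd-Pnpla2+/+ AL and 47.9, 68.8, 83.6 and 36.4 in CR samples, and at 3.69, 9.98 and 3.32 in BMAd-Pnpla2-/- AL and 16.3, 37.9 and 59.5 in CR samples. AL and CR samples did not overlap in either genotype, and the lowest CR value was in BMAd-Pnpla2-/- replicate 1. In BMAd-Pnpla2+/+ mice it rose 7.46-fold (log2 fold change of 2.90, SE 0.43, adjusted p = 0.00167), and in BMAd-Pnpla2-/- mice 6.68-fold (log2 fold change of 2.74, SE 0.50, adjusted p = 0.0096).

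Timp2 was the most abundant inhibitor. Timp2 stood at 236, 224, 223 and 216 CPM in BMAd-Pnpla2+/+ AL and 267, 523, 385 and 276 in CR samples, and at 194, 308 and 245 in BMAd-Pnpla2-/- AL and 277, 312 and 326 in CR samples. The BMAd-Pnpla2+/+ groups were apart, with replicate 2 highest under CR, whereas BMAd-Pnpla2-/- AL replicate 2 reached the CR range. The log2 fold change of 0.69 (SE 0.19, adjusted p = 0.0211) in BMAd-Pnpla2+/+ mice passed the threshold but not without AL replicate 3, CR replicate 2 or CR replicate 3 (highest adjusted p = 0.0594), and in BMAd-Pnpla2-/- mice the log2 fold change of 0.29 (SE 0.22, adjusted p = 0.414) did not pass.

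Timp3, the inhibitor that stays bound to the matrix and also blocks Adamts and Adam enzymes, was called in BMAd-Pnpla2-/- mice. Timp3 stood at 139, 200, 121 and 139 CPM in BMAd-Pnpla2+/+ AL and 178, 262, 225 and 168 in CR samples, and at 127, 137 and 146 in BMAd-Pnpla2-/- AL and 190, 195 and 255 in CR samples. There the groups did not overlap, and the log2 fold change of 0.64 (SE 0.20, adjusted p = 0.0496) lay at the threshold, was kept in 7 of 21 alternatives and reversed with the deposited counts (-0.13, adjusted p = 0.658), which hold Syn3-shared reads in AL but not in CR samples. Leaving out any single BMAd-Pnpla2-/- sample ended the call, as did leaving out BMAd-Pnpla2+/+ AL replicate 1, 3 or 4 or CR replicate 1 or 3. In BMAd-Pnpla2+/+ mice AL replicate 2 overlapped the CR samples (log2 fold change of 0.48, SE 0.17, adjusted p = 0.0535).

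Timp1, the inducible inhibitor on the X chromosome, was not called. Timp1 stood at 7.05, 4.39, 5.17 and 3.7 CPM in BMAd-Pnpla2+/+ AL and 7.16, 14.6, 6.27 and 6.95 in CR samples, and at 3.03, 5.76 and 3.22 in BMAd-Pnpla2-/- AL and 7.37, 8.31 and 6.01 in CR samples. BMAd-Pnpla2+/+ CR replicate 2 stood above the other CR samples, which overlapped AL, and the BMAd-Pnpla2-/- groups did not overlap. The values were log2 fold change of 0.78, SE 0.30, adjusted p = 0.0668 and log2 fold change of 0.85, SE 0.35, adjusted p = 0.127.

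**Figure D3:**
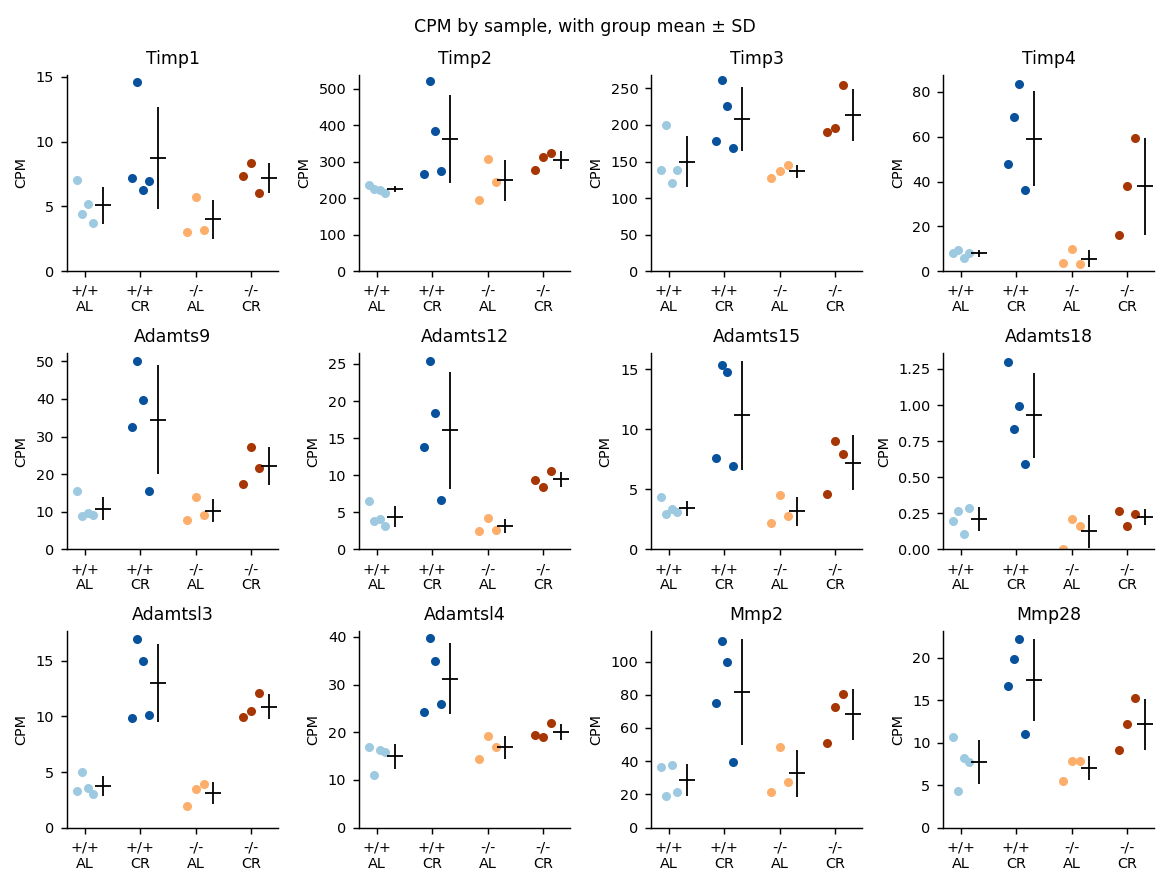
CPM in each of the 14 samples (points, in replicate order) with the group mean and SD (bars) for the 4 Timp genes and 8 further members past both criteria in BMAd-Pnpla2+/+ mice. Timp4, Adamtsl3, Adamts9, Adamts12 and Adamts15 are higher in every CR than in every AL sample of both genotypes, with narrow gaps for the Adamts genes. Adamts18 and Adamtsl4 lie higher in BMAd-Pnpla2+/+ CR than in BMAd-Pnpla2-/- CR samples.

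Among the enzymes that cleave aggrecan, versican and related proteoglycans, 2 of 5 tested rose in BMAd-Pnpla2+/+ mice and none was called in BMAd-Pnpla2-/- mice, where 2 had an unadjusted p under 0.05. Adamts9, a versican-cleaving enzyme, is also active along the secretory pathway. Adamts9 stood at 15.4, 8.98, 9.81 and 9.18 CPM in BMAd-Pnpla2+/+ AL and 32.4, 50.1, 39.8 and 15.6 in CR samples, and at 7.88, 13.9 and 9.22 in BMAd-Pnpla2-/- AL and 17.4, 27.3 and 21.7 in CR samples. Its BMAd-Pnpla2+/+ groups nearly touched, at 15.4 in AL replicate 1 and 15.6 in CR replicate 4, yet it rose 3.18-fold (log2 fold change of 1.67, SE 0.32, adjusted p = 0.0046). In BMAd-Pnpla2-/- mice the groups did not overlap either, and the log2 fold change of 1.10 (SE 0.37, adjusted p = 0.0664) missed the threshold. Adamts15 is also known as an aggrecanase. Adamts15 stood at 4.36, 2.94, 3.34 and 3.08 CPM in BMAd-Pnpla2+/+ AL and 7.59, 15.4, 14.8 and 6.9 in CR samples, and at 2.2, 4.54 and 2.79 in BMAd-Pnpla2-/- AL and 4.64, 9.06 and 7.9 in CR samples. It rose 3.25-fold in BMAd-Pnpla2+/+ mice (log2 fold change of 1.70, SE 0.32, adjusted p = 0.00399), and in BMAd-Pnpla2-/- mice had a log2 fold change of 1.18, SE 0.37, adjusted p = 0.0529.

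The classical aggrecanases Adamts4 and Adamts5, and Adamts1, did not pass in either genotype. Adamts5 stood at 66.3, 51.2, 36.5 and 29.9 CPM in BMAd-Pnpla2+/+ AL and 32.8, 55.7, 56 and 29.2 in CR samples, and at 38, 27.6 and 37.3 in BMAd-Pnpla2-/- AL and 46.6, 43.4 and 35.8 in CR samples. It was the most abundant of the 3 and its groups overlapped in both genotypes (log2 fold change of -0.08, SE 0.26, adjusted p = 0.833 in BMAd-Pnpla2+/+ mice and 0.29, adjusted p = 0.566, in BMAd-Pnpla2-/- mice). Adamts4 stood at 4.11, 2.78, 1.72 and 1.15 CPM in BMAd-Pnpla2+/+ AL and 1.68, 3.19, 2.3 and 1.71 in CR samples, and at 1.76, 1.12 and 1.5 in BMAd-Pnpla2-/- AL and 1.92, 2.5 and 2.19 in CR samples. AL replicate 1 of BMAd-Pnpla2+/+ mice gave the highest value and the BMAd-Pnpla2-/- groups were apart, but neither difference passed (log2 fold change of -0.13, SE 0.34, adjusted p = 0.794 and log2 fold change of 0.59, SE 0.41, adjusted p = 0.37). Adamts1 stood at 12.1, 10.9, 10.2 and 8.6 CPM in BMAd-Pnpla2+/+ AL and 10.8, 20.8, 14.8 and 6.15 in CR samples, and at 8.81, 10.6 and 7.5 in BMAd-Pnpla2-/- AL and 9.5, 15.5 and 12.5 in CR samples. Here too the groups overlapped in both genotypes, with log2 fold change of 0.33, SE 0.29, adjusted p = 0.402 and log2 fold change of 0.47, SE 0.33, adjusted p = 0.379. Adamts1 and Adamts5 are neighbours on chromosome 16 (85793827 to 85803113 and 85856173 to 85901828).

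Adamts12, which with Adamts7 is known for cleaving cartilage oligomeric matrix protein (chromosome 15, 11064790 to 11349231), rose in both genotypes. Adamts12 stood at 6.51, 3.9, 4.12 and 3.17 CPM in BMAd-Pnpla2+/+ AL and 13.7, 25.3, 18.4 and 6.63 in CR samples, and at 2.53, 4.22 and 2.68 in BMAd-Pnpla2-/- AL and 9.34, 8.47 and 10.5 in CR samples. CR values lay above all AL values, with the smallest gap in BMAd-Pnpla2+/+ mice between AL replicate 1 and CR replicate 4. The rise was 3.62-fold in BMAd-Pnpla2+/+ (log2 fold change of 1.86, SE 0.35, adjusted p = 0.00406) and 3.0-fold in BMAd-Pnpla2-/- mice (log2 fold change of 1.59, SE 0.41, adjusted p = 0.0271), the latter lost without BMAd-Pnpla2-/- AL replicate 1 or 3 or CR replicate 2 or 3 (highest adjusted p = 0.107). Adamts7, of which reads may be shared with Tbc1d2b on the other strand, gave log2 fold change of 0.53, SE 0.24, adjusted p = 0.118 and log2 fold change of 0.21, SE 0.29, adjusted p = 0.68.

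Of the 3 procollagen N-proteinases, which trim the amino end of fibrillar procollagens, Adamts14 rose in BMAd-Pnpla2+/+ mice. Adamts14 stood at 16.9, 14.2, 18.9 and 19.4 CPM in BMAd-Pnpla2+/+ AL and 26.3, 37.7, 37.9 and 25 in CR samples, and at 12.2, 13.9 and 15.2 in BMAd-Pnpla2-/- AL and 14.9, 21.3 and 27.5 in CR samples. It rose 1.83-fold there with no overlap (log2 fold change of 0.87, SE 0.19, adjusted p = 0.00795) and overlapped in BMAd-Pnpla2-/- mice (log2 fold change of 0.63, SE 0.22, adjusted p = 0.0799). Adamts2, with the highest mean level per kb among the Adamts genes in BMAd-Pnpla2+/+ AL samples though within the spread of Adamts10, had 1 library far above the others. Adamts2 stood at 138, 119, 112 and 125 CPM in BMAd-Pnpla2+/+ AL and 176, 300, 147 and 136 in CR samples, and at 70.5, 139 and 133 in BMAd-Pnpla2-/- AL and 120, 132 and 112 in CR samples. That library was BMAd-Pnpla2+/+ CR replicate 2, and neither genotype passed (log2 fold change of 0.62, SE 0.24, adjusted p = 0.0748 and log2 fold change of 0.09, SE 0.28, adjusted p = 0.862). Adamts3 gave 2.17 to 3.52 CPM over all samples and log2 fold changes of -0.18 and 0.33.

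Adamts18, an orphan protease without an agreed main substrate, was near the limit of detection. Adamts18 stood at 0.196, 0.267, 0.104 and 0.288 CPM in BMAd-Pnpla2+/+ AL and 1.3, 0.833, 0.992 and 0.588 in CR samples, and at 0, 0.213 and 0.161 in BMAd-Pnpla2-/- AL and 0.267, 0.16 and 0.249 in CR samples. These CPM values rest on 115 counts in all 14 samples, and every BMAd-Pnpla2+/+ CR sample lay above all others. It rose 4.24-fold in BMAd-Pnpla2+/+ mice (log2 fold change of 2.08, SE 0.47, adjusted p = 0.00884), and the log2 fold change of 0.81 (SE 0.70, adjusted p = 0.48) in BMAd-Pnpla2-/- mice did not pass. The related Adamts17 gave 0.97 and 0.30, and the fibrillin-processing pair Adamts6 and Adamts10 gave log2 fold changes from -0.12 to 0.21 for Adamts10 and of -0.03 and -0.25 for Adamts6, none called. Adamts13, which cleaves von Willebrand factor and is made mainly in liver, had 36 counts over the 14 samples, from 0 to 7 per sample, and was not tested.

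Of the Adamtsl genes, 3 of 5 rose in BMAd-Pnpla2+/+ and 1 of 5 in BMAd-Pnpla2-/- mice. Adamtsl3 (chromosome 7, 82335694 to 82614450) gave the lowest adjusted p of any member in both. Adamtsl3 stood at 3.28, 5.03, 3.6 and 3.03 CPM in BMAd-Pnpla2+/+ AL and 9.9, 16.9, 15 and 10.2 in CR samples, and at 1.98, 3.47 and 3.91 in BMAd-Pnpla2-/- AL and 9.98, 10.5 and 12.1 in CR samples. The CR samples lay at or above 9.90 CPM and the AL samples at or below 5.03, and the rise was 3.48-fold in BMAd-Pnpla2+/+ (log2 fold change of 1.80, SE 0.24, adjusted p = 0.00096) and 3.48-fold in BMAd-Pnpla2-/- mice (log2 fold change of 1.80, SE 0.28, adjusted p = 0.00663). The interaction of genotype and diet was estimated at -0.00324 with an SE of 0.41, and the calls were kept in every alternative.

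Adamtsl4, a fibrillin-binding protein, had the lowest interaction p. Adamtsl4 stood at 16.8, 11.1, 16.2 and 15.9 CPM in BMAd-Pnpla2+/+ AL and 24.2, 39.8, 35 and 25.9 in CR samples, and at 14.4, 19.2 and 16.9 in BMAd-Pnpla2-/- AL and 19.5, 18.9 and 22 in CR samples. BMAd-Pnpla2+/+ CR samples lay above all other groups, whereas BMAd-Pnpla2-/- AL and CR samples overlapped. It rose 2.08-fold in BMAd-Pnpla2+/+ mice (log2 fold change of 1.06, SE 0.17, adjusted p = 0.00231) and gave log2 fold change of 0.26, SE 0.20, adjusted p = 0.429 in BMAd-Pnpla2-/- mice. The interaction was -0.80 (SE 0.26, unadjusted p = 0.00914, adjusted p = 0.346), which did not pass. Adamtsl5 rose 1.53-fold in BMAd-Pnpla2+/+ mice (log2 fold change of 0.61, SE 0.16, adjusted p = 0.0147), from 7.49 to 10.5 CPM to 11.2 to 15.6. In BMAd-Pnpla2-/- mice it was not called and overlapped, at 8.04 to 12.0 CPM in AL and 10.5 to 13.2 in CR samples. Adamtsl1 and Adamtsl2 stayed at or below 1.81 CPM.

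The gelatinases, which degrade denatured collagen and basement membrane collagen, are Mmp2 and Mmp9. Mmp2, gelatinase A of stromal cells, rose in BMAd-Pnpla2+/+ mice. Mmp2 stood at 36.7, 19.3, 37.8 and 21.3 CPM in BMAd-Pnpla2+/+ AL and 74.9, 112, 99.7 and 39.6 in CR samples, and at 21.7, 48.5 and 27.7 in BMAd-Pnpla2-/- AL and 51.2, 72.6 and 80.6 in CR samples. AL and CR samples did not overlap in either genotype, although BMAd-Pnpla2+/+ CR replicate 4 and BMAd-Pnpla2-/- AL replicate 2 came close to the other group. The rise was 2.84-fold in BMAd-Pnpla2+/+ mice (log2 fold change of 1.5, SE 0.34, adjusted p = 0.00977), and the log2 fold change of 1.06 (SE 0.39, adjusted p = 0.0928) in BMAd-Pnpla2-/- mice missed the threshold. Mmp9 stood at 1402, 1498, 1875 and 1280 CPM in BMAd-Pnpla2+/+ AL and 1388, 2430, 1173 and 1633 in CR samples, and at 1536, 1669 and 1466 in BMAd-Pnpla2-/- AL and 1660, 1274 and 1367 in CR samples. Mmp9 overlapped between diets in both genotypes, with its highest level in BMAd-Pnpla2+/+ CR replicate 2, and gave log2 fold change of 0.13, SE 0.20, adjusted p = 0.645 and log2 fold change of -0.12, SE 0.23, adjusted p = 0.774.

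Of the collagenases, which cut the triple helix of fibrillar collagen, neither Mmp8 nor Mmp13 was called. Mmp8 stood at 513, 808, 804 and 655 CPM in BMAd-Pnpla2+/+ AL and 760, 340, 478 and 1004 in CR samples, and at 729, 822 and 803 in BMAd-Pnpla2-/- AL and 865, 617 and 736 in CR samples. The BMAd-Pnpla2+/+ CR samples held both the lowest and the highest Mmp8 value of all 14, and the log2 fold changes were -0.11 (adjusted p = 0.789) and -0.09 (adjusted p = 0.886). Mmp13 stood at 49.5, 99.2, 28.6 and 17.2 CPM in BMAd-Pnpla2+/+ AL and 42.1, 234, 67.3 and 77.2 in CR samples, and at 20.1, 33.4 and 35.2 in BMAd-Pnpla2-/- AL and 117, 139 and 86.6 in CR samples. Mmp13, the collagenase of osteoblasts and hypertrophic chondrocytes, overlapped in BMAd-Pnpla2+/+ mice, where CR replicate 2 was highest (log2 fold change of 1.11, SE 0.55, adjusted p = 0.144), and did not overlap in BMAd-Pnpla2-/- mice (log2 fold change of 1.95, SE 0.65, adjusted p = 0.067). DESeq2 called the latter, with a log2 fold change of 1.91. So did edgeR with the deposited counts, the replicate block or the 2 groups alone, and without BMAd-Pnpla2+/+ AL replicate 2 or CR replicate 2.

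Markers of bone and cartilage cells were read beside Mmp13. The summed osteoblast and osteocyte markers, 11 of 12 in the matrix and Sost not, were 578 to 1197 CPM in BMAd-Pnpla2+/+ AL and 791 to 3617 in CR (4 of 11 higher), and 638 to 1269 and 1358 to 1613 in BMAd-Pnpla2-/- mice (1 of 11 higher). Much of this sum was Col1a1, at 137 to 736 and 495 to 3066 CPM in BMAd-Pnpla2+/+ and 266 to 583 and 670 to 1133 in BMAd-Pnpla2-/- mice. Bglap overlapped between diets, at 3.99 to 13.4 and 2.80 to 16.6 CPM, and at 7.16 to 19.1 and 9.10 to 14.3. Osteoclast markers summed to 767 to 1432 and 631 to 1833 CPM (7 of 10 higher) and to 661 to 884 and 794 to 1038 (0 of 10 called by edgeR, 4 with an unadjusted p under 0.05), and Calcr was at 0 in at least 1 sample. Replicate 2 held the highest osteoclast sum of the BMAd-Pnpla2+/+ CR group, as it did for Mmp13 and Mmp9. That library also held the group's highest endothelial (2044 CPM), stromal (12533), macrophage (3219) and cartilage and tendon sums (126), and its lowest neutrophil sum (15062). The osteoblast and osteocyte sum was instead highest in replicate 1 (3617 CPM, against 3170 in replicate 2), which had the group's lowest Mmp13 level (42.1). The adipocyte sum was highest in replicate 3 (7423 CPM, against 6981 in replicate 2). In BMAd-Pnpla2-/- CR, replicate 2 had the highest Mmp13 level (139 CPM) and the lowest osteoclast sum (794). Cartilage and tendon markers, with Acan, Col9a1 and Matn3 not among the matrix genes, summed to 22.0 to 54.2 and 27.0 to 126 CPM and to 24.0 to 35.8 and 38.5 to 58.3, with 1 of 5 tested higher in each genotype. The part of these cells in the Mmp13 values was not tested.

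Among the membrane-type enzymes, Mmp25 fell and Mmp17 rose in BMAd-Pnpla2+/+ mice. Mmp25 stood at 172, 168, 212 and 159 CPM in BMAd-Pnpla2+/+ AL and 141, 94.8, 104 and 156 in CR samples, and at 191, 199 and 186 in BMAd-Pnpla2-/- AL and 174, 119 and 130 in CR samples. CR samples lay below all AL samples in both genotypes. In BMAd-Pnpla2+/+ mice Mmp25 was 0.697 times its AL level (log2 fold change of -0.52, SE 0.16, adjusted p = 0.0319), a call lost without AL replicate 2 or 3 or CR replicate 2 or 3, or when the fit held the BMAd-Pnpla2+/+ samples alone (highest adjusted p = 0.0984), and in BMAd-Pnpla2-/- mice the log2 fold change of -0.45 (SE 0.19, adjusted p = 0.128) did not pass. Of 12 neutrophil genes 8 fell beside it in BMAd-Pnpla2+/+ mice, where their sum was 30615 to 39423 CPM in AL and 15062 to 27798 in CR samples. In BMAd-Pnpla2-/- mice the sum was 33090 to 34342 in AL and 20437 to 32536 in CR samples (0 of 12 called by edgeR, 5 with an unadjusted p under 0.05). None of the 12 was at 0 in any sample, and their part in the values of Mmp25, Mmp8 and Mmp9 was not tested.

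Mmp14, the membrane enzyme that activates pro-Mmp2, did not pass. Mmp14 stood at 102, 74.5, 66.9 and 60.7 CPM in BMAd-Pnpla2+/+ AL and 82.7, 196, 113 and 77.8 in CR samples, and at 51.6, 78.1 and 65.2 in BMAd-Pnpla2-/- AL and 77.6, 91.4 and 91.6 in CR samples. The groups overlapped in both genotypes, with BMAd-Pnpla2+/+ CR replicate 2 at the top (log2 fold change of 0.63, SE 0.26, adjusted p = 0.0908 and log2 fold change of 0.42, SE 0.30, adjusted p = 0.392). Mmp17 rose 1.55-fold in BMAd-Pnpla2+/+ mice (log2 fold change of 0.63, SE 0.20, adjusted p = 0.0309) from 1.39 to 2.11 CPM to 2.41 to 3.47, a call lost without AL replicate 2, 3 or 4 or CR replicate 1, 2 or 3 (highest adjusted p over all alternatives 0.0951). With the 2 groups alone or with reverse-strand counts Mmp17 was not called either, and it kept its call in 14 of 23 alternatives. In BMAd-Pnpla2-/- mice it was not called, at 1.60 to 1.87 CPM in AL and 2.03 to 2.58 in CR samples, also without overlap. Mmp15 gave 0.86 and 0.17, and Mmp16, at 0.0522 to 1.63 CPM, 1.62 (adjusted p = 0.0622) and 1.83 (adjusted p = 0.117).

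**Figure D4:**
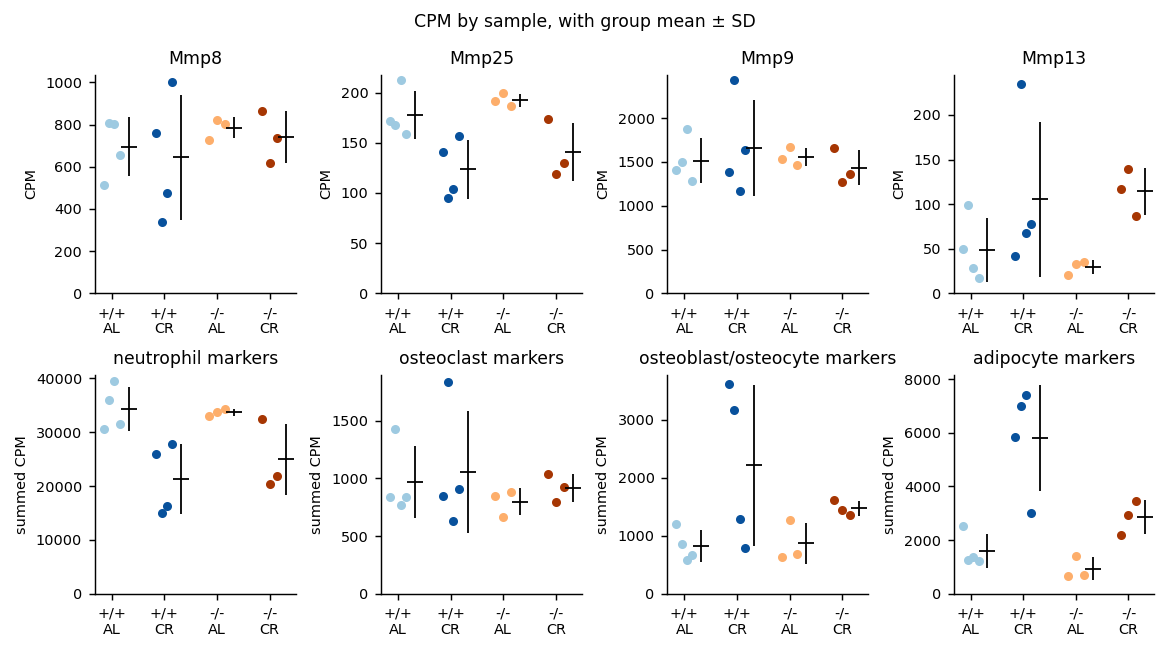
CPM of Mmp8, Mmp25, Mmp9 and Mmp13 (top) and summed CPM of neutrophil, osteoclast, osteoblast and osteocyte, and adipocyte markers (bottom) in each sample, with group means and SD. Mmp25 and the neutrophil sum are lower in every CR than in every AL sample of the same genotype, and Mmp13 and the osteoclast sum share their highest sample, 234 and 1833 CPM. In BMAd-Pnpla2-/- CR, the sample with the highest Mmp13 level (139 CPM) has the lowest osteoclast sum (794). In BMAd-Pnpla2+/+ CR, the sample with the highest osteoblast and osteocyte sum (3617) has the lowest Mmp13 level (42.1).

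Of the remaining Mmp genes, Mmp28 and Mmp23 rose in BMAd-Pnpla2+/+ mice. Mmp28 stood at 10.7, 4.33, 8.19 and 7.74 CPM in BMAd-Pnpla2+/+ AL and 16.6, 19.8, 22.2 and 11 in CR samples, and at 5.45, 7.79 and 7.88 in BMAd-Pnpla2-/- AL and 9.18, 12.2 and 15.2 in CR samples. Mmp28, called epilysin, did not overlap in either genotype and rose 2.24-fold in BMAd-Pnpla2+/+ mice (log2 fold change of 1.17, SE 0.27, adjusted p = 0.0102), with a log2 fold change of 0.79 (SE 0.32, adjusted p = 0.115) in BMAd-Pnpla2-/- mice. Mmp23 rose 1.96-fold in BMAd-Pnpla2+/+ mice (log2 fold change of 0.97, SE 0.23, adjusted p = 0.0102), from 6.82 to 9.55 CPM to 10.4 to 23.7. In BMAd-Pnpla2-/- mice it stood at 5.62 to 9.50 CPM in AL and 9.50 to 12.4 in CR samples, nearly touching, with an unadjusted p under 0.05 and no call. Mmp12, the macrophage elastase, was 55.3 CPM in BMAd-Pnpla2-/- AL replicate 2 against 4.24 and 5.09 in the other two and 1.86 to 15.6 elsewhere, and gave -0.46 and -1.38, neither called. Macrophage markers summed to 2896 CPM in that library and to 1797 and 2114 in the other two, and 3 of 10 were higher with CR in BMAd-Pnpla2+/+ and 1 of 10 in BMAd-Pnpla2-/- mice. Mmp11 and Mmp19 gave log2 fold changes between -0.20 and 0.10, none called.

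Mmp13, Mmp12, Mmp8 and Mmp27 lie together on chromosome 9, between 7272514 and 7581885. Their log2 fold changes with CR in BMAd-Pnpla2+/+ mice were 1.11, -0.46, -0.11 and -0.68, and in BMAd-Pnpla2-/- mice 1.95, -1.38, -0.09 and -0.01. The neighbours thus showed no common direction, and none was called in either genotype by the edgeR fit reported here. Under several alternatives Mmp13 was called in BMAd-Pnpla2-/- mice.

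No member differed between genotypes in AL mice, where edgeR called 0 genes of 17494 (0% of all genes). No member had an unadjusted p under 0.05 there, against 3.97% of all genes, the lowest being 0.0564 for Mmp12, and DESeq2 called no member either. Of 38 members, 25 lay below 0, with a median log2 difference of -0.12 against -0.01 for all genes. This lean hung on single samples. Without BMAd-Pnpla2-/- AL replicate 1, 20 members lay above 0 (median 0.02), and without AL replicate 2, 6 did (median -0.30). With all samples, Timp1 to Timp4 gave -0.34, 0.15, -0.13 and -0.48, and Mmp2, Mmp9 and Mmp13 gave 0.18, 0.04 and -0.72. The largest SE of these, 0.60 for Mmp13, exceeded that of Mmp9, 0.21, so a difference of a given size was less detectable for the former. In the same comparison 10 of 12 adipocyte genes lay below 0 (median -0.96, 0 called by edgeR, 7 with an unadjusted p under 0.05), and their part in the members' values was not tested.

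Under CR no member was called between genotypes either, against 0.0171% of all genes (3 genes). By edgeR 8 members (21.1%) had an unadjusted p under 0.05, a share no higher than the 23.2% of all genes, and DESeq2, which called 9.13% of all genes, called 1 member, Adamtsl4 (-0.66). The 8 were Adamts2, Adamts7, Adamts10, Adamts14, Adamts18, Adamtsl4, Mmp23 and Mmp27, all lower in BMAd-Pnpla2-/- mice but Mmp27. The largest difference was that of Adamts18, at 0.588 to 1.30 CPM in BMAd-Pnpla2+/+ and 0.160 to 0.267 in BMAd-Pnpla2-/- samples (log2 fold change of -2.01, SE 0.52, adjusted p = 0.0713). Adamtsl4 gave log2 fold change of -0.63, SE 0.19, adjusted p = 0.0897 and Adamts10 log2 fold change of -0.44, SE 0.16, adjusted p = 0.128, and neither overlapped between the groups. Without BMAd-Pnpla2+/+ CR replicate 4, 6 members were called, with Adamts9, Adamts10, Adamts12, Adamts18 and Adamtsl4 lower and Mmp27 higher, against 12.0% of all genes in that setting (5.45% lower and 6.54% higher). In all, 30 of 38 members lay below 0, with a median of -0.25 against -0.01 for all genes. Without BMAd-Pnpla2+/+ CR replicate 2 the median was -0.11, with 13 of 38 members above 0, and without replicate 4 it was -0.36, with 6 above 0. With all samples, 12 of 12 adipocyte genes lay below 0 in the same comparison (median -0.91, 0 called by edgeR, 9 with an unadjusted p under 0.05). So did 10 of 10 endothelial genes (median -0.44, 0 called, 4 with an unadjusted p under 0.05) and 9 of 10 osteoclast genes (median -0.75, 0 called, 0 with an unadjusted p under 0.05), and the part of these cells was not tested.

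The interaction, which asks whether the response to CR differed between genotypes, called no member and 0% of all genes. Adamtsl4 was the only member with an unadjusted p under 0.05 (2.63% of members, against 10.4% of all genes), and DESeq2 called no member. Of 38 estimates, 27 lay below 0 (median -0.24, against 0.00 for all genes, and -0.35 to -0.05 when a sample was left out). Estimates ranged from -1.27 (SE 0.90) for Adamts18 to 0.84 (SE 0.83) for Mmp13, so the smaller number of calls in BMAd-Pnpla2-/- mice was not shown to be a difference between genotypes.

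Other matrix proteases, their regulators and their substrates were read from a list of 52 genes, of which 45 were tested. In BMAd-Pnpla2+/+ mice CR raised 13 and lowered 4, and in BMAd-Pnpla2-/- mice it raised 4 and lowered 1, against the shares of all genes given above. Among the former, Spock2, a matrix proteoglycan (4.07 to 6.41 CPM in AL, 14.8 to 30.1 in CR), rose most (log2 fold change of 2.17, SE 0.26, adjusted p = 0.000616). Ncan, a lectican core protein, rose by 2.08, Ctsk, the collagen-degrading cathepsin of osteoclasts, by 1.93, and Pcsk6, a convertase of precursor proteins, by 1.65 on the log2 scale, with adjusted p-values of 0.0115, 0.0455 and 0.0129. Ctsk reached 508 CPM in CR replicate 2, against 64.4 to 122 in the other CR samples. Dpp4, a serine peptidase (-0.92), Vwf, the substrate of Adamts13 (-0.84), Adam10, a sheddase (-0.48), and Cd44, a hyaluronan receptor that also binds Mmp9 (-0.37), were lower.

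Of the same list in BMAd-Pnpla2-/- mice, the 4 raised were Plat, tissue plasminogen activator (2.16), Spock2 (1.58), Vcan, the versican cleaved by several Adamts enzymes (1.23), and Fap, a fibroblast gelatin-cleaving peptidase (0.99). Dpp4 was lowered (-0.90). Vcan stood at 43.3, 24.7 and 36.6 CPM in AL and 118, 63.5 and 63.8 in CR. No gene of the list was called in the genotype comparisons or the interaction by edgeR. Of its 45 tested genes, 1 (AL), 12 (CR) and 3 (interaction) had an unadjusted p under 0.05, against 3.97%, 23.2% and 10.4% of all genes. Skeletal muscle markers, a tissue next to the plug, summed to 8.53 to 36.5 CPM in all samples but BMAd-Pnpla2-/- CR replicates 2 and 3, at 48.8 and 138, and 0 of 7 tested were called by edgeR in any comparison. For CR in BMAd-Pnpla2-/- mice 6 of 7 had an unadjusted p under 0.05 (7 of 7 above 0, median 1.95), as did 6 of 7 between genotypes under CR (median 1.85), and their part in the members' values was not tested.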

How the data were processed

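Total RNA of 14 samples was sequenced in pairs. Per the labels and the study's methods, reads were checked with FastQC 0.11.9 and aligned to mm10 with STAR, and the authors deposited raw counts per gene for each sample (unstranded, first-strand and reverse-strand) and a count matrix, without normalization. The matrix holds reverse-strand counts for 11 samples and unstranded counts for the 3 BMAd-Pnpla2-/- CR samples, so unstranded counts were used throughout. Reads not placed on 1 gene made up 18.5% to 23.9% of mapped reads and entered no test.

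Groups followed the labels. Genes were filtered with filterByExpr, scaled by TMM and tested with a robust quasi-likelihood fit of edgeR 4.0.16 (R 4.3.3) on 1 model of the 4 groups, two-sided, with Benjamini-Hochberg adjustment over all 17494 genes and a threshold of 0.05. The SE is the log2 fold change over the square root of F. Alternatives were RLE factors, total counts, DESeq2 1.42.0, no filter, deposited counts, reverse-strand counts, 2 groups alone, a replicate block, and leaving out each sample. The tests were first tried on simulated data. Positions came from GENCODE M21 (GRCm38).

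The members and all gene lists were chosen with earlier results of these data known. Values per sample are given for the Timp genes, for members past adjusted p of 0.05 and a log2 fold change of 1, for those with an unadjusted interaction p under 0.05, and for Mmp2, Mmp8, Mmp9, Mmp13, Mmp14, Mmp25, Adamts1, Adamts2, Adamts4, Adamts5 and Adamts12, and Adamts13 is given by its counts. From the list of 52 other matrix genes, the 4 largest and 4 smallest log2 fold changes past the threshold are named.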

Additional observations from a re-analysis of the deposited data

Results flagged for a closer look

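Among the 76 groups of 4 samples examined over the 38 tested members, 4 held 1 sample far from the other 3, where chance gives about 3.8 (1 in 20). Timp1 was 14.6 CPM in BMAd-Pnpla2+/+ CR replicate 2, against 6.27 to 7.16 in the other CR samples. Mmp12 was 8.05 CPM in the same library, against 3.79 to 3.85. Adamts6 was 6.58 CPM in BMAd-Pnpla2+/+ CR replicate 1, against 5.37 to 5.46. Adamts9 was 15.4 CPM in BMAd-Pnpla2+/+ AL replicate 1, against 8.98 to 9.81.

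Outside the deposited matrix, 2 further family genes had counts in BMAd-Pnpla2+/+ CR replicate 1 and none in the BMAd-Pnpla2+/+ AL samples. Mmp1a, an interstitial collagenase gene annotated as a polymorphic pseudogene, had 9 of its 14 counts there, and Mmp3, stromelysin 1, had 6 of its 18. All counts of both genes in the stranded libraries lay on the first strand, which in these libraries is the strand opposite to the gene, and none on the strand of the gene.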

How the results depend on the processing

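In BMAd-Pnpla2+/+ mice the 14 members raised by CR became 13 to 18 under other settings and 12 to 21 when a sample was left out, and 12 of the 15 calls were kept in every alternative (all but Timp2, Mmp17 and Mmp25). The 1 lowered became 2 with DESeq2, 2 with the replicate block, 0 with the 2 groups alone and 0 with reverse-strand counts of BMAd-Pnpla2+/+ samples, and 0 to 2 when a sample was left out. In BMAd-Pnpla2-/- mice the 4 raised became 8 with DESeq2 and 7 with the replicate block, and 2 to 7 when a sample was left out, with Timp4 and Adamtsl3 kept throughout. Timp3 there reversed with the deposited counts, to -0.13. Between genotypes under CR the 0 lower members became 1 with DESeq2 and 3 with the deposited counts, and leaving out a sample gave 0 to 5 lower and 0 to 1 higher. No member was called between genotypes in AL or for the interaction under any alternative run.

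Over all genes, the 3 calls between genotypes under CR became 650 higher and 948 lower with DESeq2, 1190 and 1261 with the deposited counts, and up to 1141 and 951 without BMAd-Pnpla2+/+ CR replicate 4. For diet in BMAd-Pnpla2-/- mice 1051 and 974 became 1408 and 1690 with DESeq2 and 1797 and 2101 with the deposited counts, and as few as 121 and 127 when a sample was left out, and in BMAd-Pnpla2+/+ mice 2628 and 1915 became 1762 and 927 with the 2 groups alone, 1432 and 768 without CR replicate 3, 1479 and 1387 without AL replicate 3, 1596 and 1054 without CR replicate 2, 1838 and 1167 without AL replicate 2 and 3203 and 2756 without CR replicate 4. DESeq2 called 3 and 16 genes between genotypes in AL and 32 and 28 for the interaction, and the deposited counts 211 and 467 for the latter, where edgeR on unstranded counts called 0. Other than for the strand of the deposited counts, the cause was not tested.

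Replicate numbers are shared by the groups. Deviations of same-numbered samples correlated at -0.20 to 0.11 between AL and CR in BMAd-Pnpla2+/+ and at -0.10 to 0.18 in BMAd-Pnpla2-/- mice, and between genotypes at -0.21 to -0.02 in AL and at 0.23, 0.08 and 0.28 under CR, where replicates 1 and 3 correlated best with their own number and replicate 2 did not. No comparison had every pair over 0.1, so the numbers were not taken to pair the samples. Total-count scaling moved the median of all genes in BMAd-Pnpla2-/- mice from 0.05 to 0.12. Of 1856 single-gene values over 85 gene and comparison pairs, 1730 kept direction and side of the threshold, 34 changed sign without being called in either setting, 56 passed it newly, 35 lost it and 1 reversed. Members under 1 CPM, such as Adamts18 and Mmp16, rest on few counts.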

Other observations

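Of the families, 8 genes appear in the per-sample counts and not in the deposited matrix. Adamts16 had 5 counts in the 14 samples, Adamts19 had 2, Mmp10 had 3, Mmp1a had 14 and Mmp3 had 18, and Mmp1b, Mmp7 and Mmp20 had 0. Mmp1a, Mmp1b, Mmp3, Mmp7, Mmp10 and Mmp20 lie on chromosome 9 beside Mmp8, Mmp12, Mmp13 and Mmp27.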
